A study of Mus musculus with 6 samples.

Results

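Matrix metalloproteinases (MMPs), ADAMTS proteases, the related ADAMTS-like proteins and the tissue inhibitors of metalloproteinases (TIMPs) together control how the extracellular matrix is cut. Their mRNA levels were compared between 3 clones of mouse induced pluripotent stem (iPS) cells in which E-cadherin was knocked down (shECAD) and 3 control clones. The members are all genes whose symbols name an Mmp, Adamts, Adamtsl or Timp gene, each read by the brightest probeset that carries 1 gene symbol. There are 49 of them among the 19938 genes measured: 22 Mmp, 18 Adamts, 5 Adamtsl and 4 Timp genes. Mmp15 and Adamts2, which also fit the naming rule, were not analysed here. The inhibitors Timp3, Timp2 and Timp1 were all higher in the shECAD clones, and Timp3 (5.98-fold) and Timp2 (3.21-fold) had the largest changes of all 49 members. Among the proteases, Mmp13, Adamts1 and Adamts6 were higher, and no member was called lower.

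MMPs and ADAMTS enzymes are zinc-dependent proteases that are made as inactive precursors and act outside the cell or at its surface. MMPs cut collagens, gelatin, laminins and many surface proteins, whereas ADAMTS enzymes cut large proteoglycans such as versican and trim the ends of procollagens. TIMPs bind the active site of MMPs and block it, and TIMP3 also blocks ADAMTS enzymes, so the balance of enzyme and inhibitor sets how fast a matrix turns over. In culture, fibroblasts are a rich source of several of these enzymes and inhibitors, while pluripotent cells grow as compact epithelial colonies held together by E-cadherin.

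All 6 lines came from OG2 mouse embryonic fibroblasts, which carry an Oct4-driven green fluorescent reporter, infected with retroviruses for Klf4, c-Myc, Sox2 and Oct4. The shECAD clones 4, 8 and 9 also received a short hairpin RNA (shRNA) against E-cadherin, and the control clones 2, 3 and 4 one against luciferase, which mouse cells lack. Infected cells were moved onto feeder cells on day 6 and colonies were picked on day 14, so each line descends from 1 colony, and shECAD clone 4 and control clone 4 share a number only. Lines were kept in mouse embryonic stem cell medium on feeders, and feeder cells were removed before RNA extraction. Each line was hybridised once, from 100 ng of total RNA, to an Affymetrix whole-transcript array. The labels name no separate infections, so the p-values below measure the spread between clones, which share their starting cells.

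The values are log2 expression values, so a difference of 1 is a doubling. The array medians were 5.26, 5.20 and 5.30 in shECAD clones 4, 8 and 9, against 5.22, 5.11 and 5.16 in control clones 2, 3 and 4. Cdh1, which encodes E-cadherin and is the shRNA target, read 6.75, 6.92 and 7.81 in the shECAD clones, against 9.18, 9.60 and 9.07 in the controls. It was lower in every shECAD clone, by 2.13 ± 0.27 (SE) on the log2 scale (limma adjusted p = 0.00683), and still read above the array median in each of them. Of 12 pluripotency markers, all 12 lay above the array median in both groups and 0 were called by limma. At an uncorrected p below 0.05, 5 were lower and 0 higher, against 18.0% of all genes in either direction. The Y-linked gene Eif2s3y was above 6.5 only in shECAD clone 9 (7.95) and control clone 3 (8.45), 1 clone of each group.

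Markers of fibroblasts and feeder cells moved with the groups. Of 23 such markers, 15 were called higher in the shECAD clones and 0 lower (0 lower at an uncorrected p below 0.05 as well), with a median log2 fold change of 1.15. Their mean level was 6.96, 7.25 and 6.94 in shECAD clones 4, 8 and 9, against 6.25, 5.82 and 5.18 in control clones 2, 3 and 4. By group mean, 20 of the 23 lay above the array median in the shECAD clones and 16 in the controls. Lox, which cross-links collagen, was called higher by 2.35 on the log2 scale, whereas Lum and Dpt, both matrix genes of mature fibroblasts, had log2 fold changes of -0.23 and -0.14 and were not called. Smooth muscle and myofibroblast markers were called higher in 4 of 8 cases and endoderm markers in 2 of 12 (Col4a1 and Col4a2). At an uncorrected p below 0.05, 6 of the 8 and 7 of the 12 were higher and 0 lower. The 8 smooth muscle and myofibroblast markers had log2 fold changes from 0.07 to 3.42, the last for Acta2 and also the highest over all genes. Trophoblast, endothelial and blood markers gave 0 calls by limma, with 2 of 8, 2 of 7 and 1 of 7 higher and 0, 1 and 1 lower at an uncorrected p below 0.05. For all genes the shares were 3.12% called and 18.0% at that uncorrected p, in either direction. In these bulk samples, more cells of one type and more RNA per cell cannot be told apart.

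Across the whole family, 6 of the 49 members were called (12.2%), against 3.12% of all genes. By gene family, the calls were 3 of 4 Timp, 2 of 18 Adamts (11.1%), 1 of 22 Mmp (4.55%) and 0 of 5 Adamtsl genes. The 3.12% is also the share against which the calls of each role group can be read. All 6 were higher in the shECAD clones, against 1.90% of all genes called higher and 1.23% called lower. At an uncorrected p below 0.05, 17 members were higher and 1 was lower, together 36.7% of the 49, against 18.0% of all genes, the share against which the uncorrected counts of each role group can be read. Without variance moderation, limma called none of the 6, and 3 genes in all. The log2 fold change was positive for 41 members and negative for 8, with a median of 0.23, against a median of 0.0254 over all genes, 53.7% of which were positive. Centring each array on its own median left 35 members and 40.8% of all genes positive, and quantile normalization left 36 members and 50.5%. The 3 shECAD values all lay above the 3 control values for 15 members (30.6%) and all below them for 1 (2.04%), against 11.1% and 12.5% of all genes. All calls together split into 378 higher and 245 lower on the deposited scale, and into 303 higher and 377 lower after centring.

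**Figure D1:**
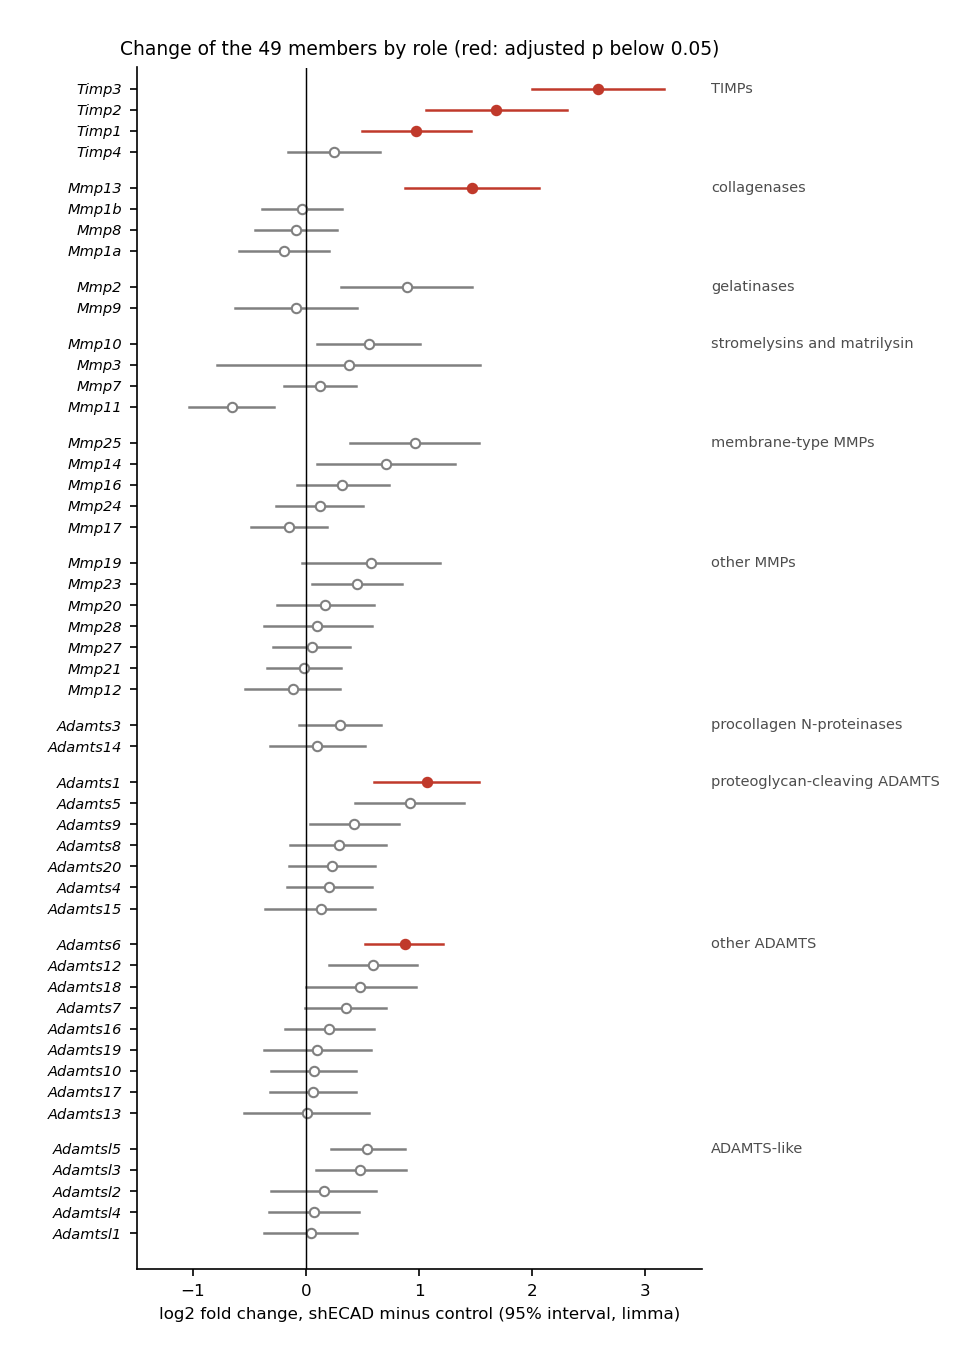
Log2 fold change (shECAD minus control) of each of the 49 members with its 95% interval from limma, grouped by role. Filled red points are the 6 members with an adjusted p below 0.05, led by Timp3 at 2.58, and Mmp11 at -0.66 lies farthest to the left.

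By group mean, 22 members lay above the array median in the shECAD clones and 18 in the controls. On all 6 arrays 13 members were above it: Adamts1, Adamts3, Adamts7, Adamts9, Adamts14, Adamts17, Adamtsl4, Mmp2, Mmp11, Mmp14, Mmp17, Timp1 and Timp2. A further 24 were above it on none, and 12 on some. Of the 13 bright members 3 were called (Adamts1, Timp1 and Timp2; 23.1%, against 4.04% of all genes that bright), and of the other 36 another 3 were (Timp3, Mmp13 and Adamts6). The 13 had a median log2 fold change of 0.35, against -0.0957 over the 9236 genes that were above the array median on all arrays. The files give no detection call, so a level below the array median is a dim signal and not a measured absence.

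**Figure D2:**
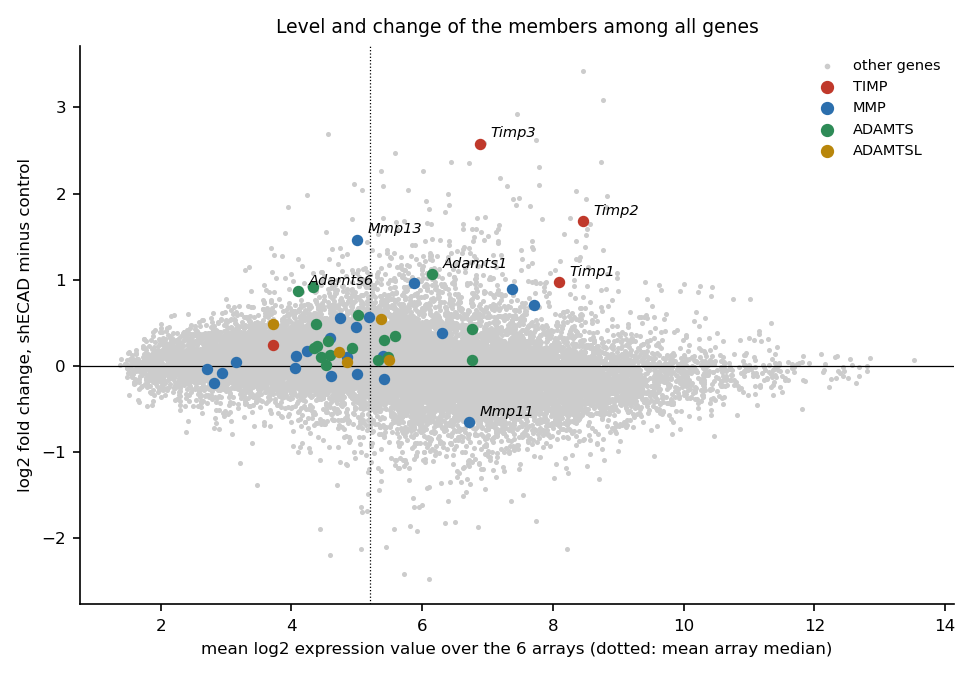
Mean log2 expression value over the 6 arrays (horizontal) and log2 fold change, shECAD minus control (vertical), for all 19938 genes in grey and for the members in colour by family. Timp3, Timp2, Timp1 and Adamts1 lie to the right of the mean array median, and Mmp13 and Adamts6 lie to the left of it.

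Timp3 and Timp2 changed most among the members. Of the 4 TIMPs, 3 were called higher in the shECAD clones, and the fourth, Timp4, was dim on every array. Timp3, whose product stays bound to the matrix and blocks ADAM and ADAMTS enzymes as well as MMPs, read 7.88, 8.53 and 8.14 in shECAD clones 4, 8 and 9, against 6.01, 5.78 and 5.01 in control clones 2, 3 and 4. Every shECAD value lay above every control value, with a gap of 1.86 between the groups. The means were 8.18 ± 0.33 in shECAD clones and 5.60 ± 0.52 in controls (SD, n = 3 each), a log2 fold change of 2.58 ± 0.26 (SE; 5.98-fold, 95% interval 4.00 to 8.92; limma adjusted p = 0.00282). It was called whichever clone was left out.

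Timp2 encodes a secreted inhibitor that also takes part, with the membrane protease MMP14, in activating the MMP2 precursor. It read 9.22, 9.42 and 9.26 in the shECAD clones, against 8.34, 7.53 and 6.99 in control clones 2, 3 and 4. The shECAD clones were close together, while the controls spread over more than 1 log2 unit and clone 2 came nearest to the shECAD level. This gave a log2 fold change of 1.68 ± 0.28 (SE; 3.21-fold, 95% interval 2.08 to 4.95; limma adjusted p = 0.0155), and the call was lost without shECAD clone 8 (adjusted p = 0.0644).

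Timp1, an inducible secreted inhibitor, read 8.83, 8.79 and 8.13 in the shECAD clones, against 7.90, 7.51 and 7.40 in the controls. The groups did not overlap, but shECAD clone 9 and control clone 2 were only 0.22 apart. The log2 fold change was 0.97 ± 0.22 (SE; 1.97-fold, 95% interval 1.40 to 2.75; limma adjusted p = 0.0433). The call was lost on centring each array (adjusted p = 0.0529), on admitting probesets with several symbols (0.056), and without shECAD clone 4 (0.135), shECAD clone 8 (0.125), control clone 3 (0.111) or control clone 4 (0.156). Timp1 lies on the X chromosome. With the high-Eif2s3y clones, 1 in each group, as a covariate, its limma adjusted p was 0.0368. A covariate balanced in this way cannot move the log2 fold change, which stayed at 0.97.

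Timp4 read 3.96, 3.60 and 3.95 in the shECAD clones, against 3.29, 3.81 and 3.67 in the controls. The groups overlapped below the array median of every clone, and the log2 fold change of 0.25 ± 0.18 (SE) was not called (adjusted p = 0.53). Per the RefSeq gene table, Timp1, Timp3 and Timp4 each lie inside a synapsin gene, Syn1, Syn3 and Syn2. None of these hosts was called: their log2 fold changes were 0.22 for Syn1 (adjusted p = 0.594), 0.14 for Syn3 (0.718) and 0.30 for Syn2 (0.432).

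**Figure D3:**
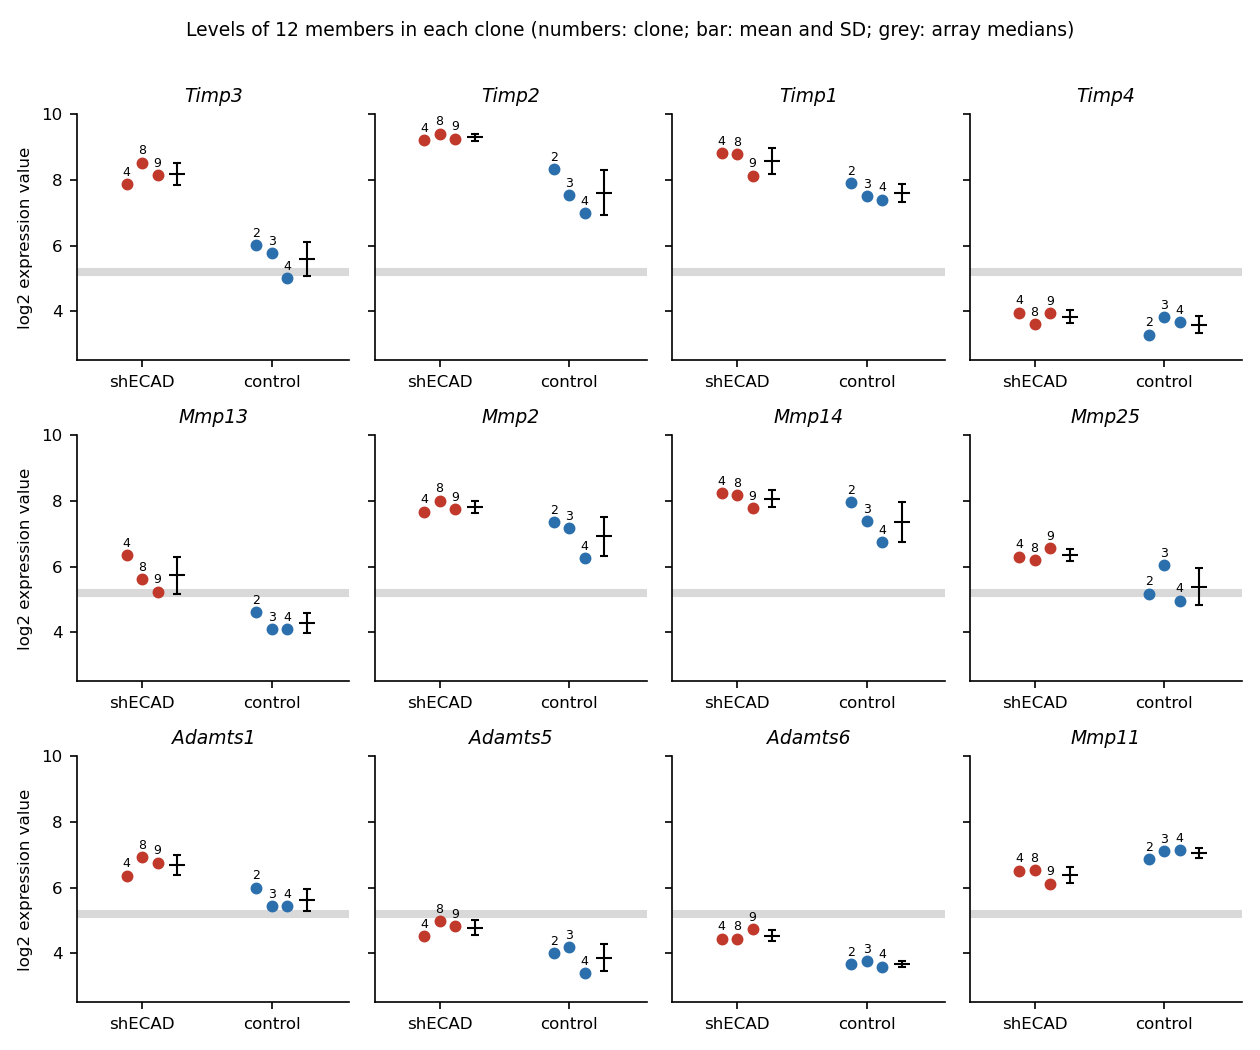
Log2 expression values of 12 members in each clone, shECAD left and control right, with the clone number at each point, the mean and SD beside the points and the range of the array medians in grey. The lowest shECAD point of Timp3 lies 1.86 above its highest control point, and those of Mmp11 lie below all control points.

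The promoters of the 3 called TIMPs are shown because these genes moved together. The sequences are RefSeq windows on GRCm38.p6 from 250 bases before to 50 bases after the start site, read 5′ to 3′ on the gene's own strand: chr10:86300162-86300461 (plus strand) for Timp3, chr11:118355362-118355661 (minus strand) for Timp2 and chrX:20869916-20870215 (plus strand) for Timp1. Capitals mark GGGCGG, a GC box of the kind bound by Sp-family factors, on either strand.
Timp3: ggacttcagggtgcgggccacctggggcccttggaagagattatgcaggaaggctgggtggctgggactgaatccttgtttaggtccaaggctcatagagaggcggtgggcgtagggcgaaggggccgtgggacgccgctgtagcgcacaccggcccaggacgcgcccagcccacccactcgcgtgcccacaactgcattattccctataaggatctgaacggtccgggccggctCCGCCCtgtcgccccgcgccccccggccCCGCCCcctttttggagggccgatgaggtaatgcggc
Timp2: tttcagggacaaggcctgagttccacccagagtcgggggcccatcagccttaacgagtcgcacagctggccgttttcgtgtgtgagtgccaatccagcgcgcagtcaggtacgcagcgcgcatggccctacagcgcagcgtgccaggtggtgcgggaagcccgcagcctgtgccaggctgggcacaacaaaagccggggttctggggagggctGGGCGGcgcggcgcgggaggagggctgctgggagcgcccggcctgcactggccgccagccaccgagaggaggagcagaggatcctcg
Timp1: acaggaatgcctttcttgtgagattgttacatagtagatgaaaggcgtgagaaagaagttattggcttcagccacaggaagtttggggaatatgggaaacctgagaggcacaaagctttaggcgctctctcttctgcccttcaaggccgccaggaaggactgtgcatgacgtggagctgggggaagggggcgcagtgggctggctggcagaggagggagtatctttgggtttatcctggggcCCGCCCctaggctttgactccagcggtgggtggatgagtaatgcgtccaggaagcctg
Timp3 holds 2 such matches and Timp2 and Timp1 hold 1 each, which is a common feature: 20 of the 34 members with an entry and 35.7% of all 32851 promoters of this length hold at least 1. None of the 3 windows holds the exact letters TGANTCA, the core of an AP-1 element, on either strand. Near matches, such as TGAGTAA in the Timp1 window, were not searched for. A match describes letters in a window and is no measured binding site.

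Of the 4 genes grouped here as collagenases, a class named for opening the triple helix of fibrillar collagen, 1 was called. Mmp13, or collagenase 3, read 6.36, 5.62 and 5.24 in shECAD clones 4, 8 and 9, against 4.62, 4.10 and 4.10 in control clones 2, 3 and 4. The groups did not overlap: the shECAD clones lay around or above the array median and every control clone below it. With a log2 fold change of 1.47 ± 0.27, Mmp13 was called (SE; limma adjusted p = 0.0223). The call was lost without shECAD clone 8 (adjusted p = 0.0664), control clone 3 (0.0588) or control clone 4 (0.0814).

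Mmp1a, a mouse counterpart of human interstitial collagenase, read 2.62, 3.02 and 2.51 in the shECAD clones, against 3.10, 2.80 and 2.84 in the controls. Mmp8, the neutrophil collagenase, read 2.72, 2.83 and 3.12 in the shECAD clones, against 2.88, 2.94 and 3.11 in the controls. Both sat far below the array median with overlapping groups, and their log2 fold changes of -0.20 and -0.09 were not called (adjusted p = 0.616 and 0.825). Mmp1b, the remaining gene of the group, was as dim, with means of 2.70 in shECAD clones and 2.73 in controls.

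Mmp13 stands at one end of a run of 10 neighbouring Mmp genes on chromosome 9, in the order Mmp13, Mmp12, Mmp1b, Mmp3, Mmp1a, Mmp10, Mmp8, Mmp27, Mmp20 and Mmp7 by the RefSeq neighbours. It was the only one of the 10 called, and the other 9 had log2 fold changes between -0.20 and 0.56. The promoters of Mmp13 and of the 2 stromelysins of the run are shown for the AP-1 letters they share. They are RefSeq windows on GRCm38.p6, plus strand, at chr9:7272264-7272563 for Mmp13, chr9:7445572-7445871 for Mmp3 and chr9:7502092-7502391 for Mmp10, with TGANTCA in capitals.
Mmp13: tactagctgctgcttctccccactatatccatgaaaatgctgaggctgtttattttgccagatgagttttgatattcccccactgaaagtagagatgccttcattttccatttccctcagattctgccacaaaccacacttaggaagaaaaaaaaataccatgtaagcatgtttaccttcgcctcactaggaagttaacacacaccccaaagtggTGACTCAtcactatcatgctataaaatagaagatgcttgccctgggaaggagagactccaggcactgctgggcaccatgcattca
Mmp3: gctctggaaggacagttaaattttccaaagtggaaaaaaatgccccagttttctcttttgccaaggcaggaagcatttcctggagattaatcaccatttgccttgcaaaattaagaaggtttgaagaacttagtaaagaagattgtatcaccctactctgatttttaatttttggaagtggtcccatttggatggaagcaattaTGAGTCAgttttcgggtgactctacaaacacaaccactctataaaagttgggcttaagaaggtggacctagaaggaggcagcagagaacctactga
Mmp10: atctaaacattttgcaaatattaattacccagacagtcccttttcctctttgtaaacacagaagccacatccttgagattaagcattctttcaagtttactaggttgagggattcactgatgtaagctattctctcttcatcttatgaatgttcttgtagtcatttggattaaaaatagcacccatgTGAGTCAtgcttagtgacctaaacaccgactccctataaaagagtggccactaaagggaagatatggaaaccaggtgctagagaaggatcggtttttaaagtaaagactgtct
The match starts 35 bases before the start site in Mmp13, 46 before it in Mmp3 and 63 before it in Mmp10. TGANTCA was found in 8 of the 10 promoters of the run (not in Mmp8 or Mmp27), in 0 of the 24 other members with an entry, and in 7.81% of all promoters of this length. Of the 8 genes with the letters only Mmp13 was called. Among the 5 called members with an entry, Mmp13 alone holds them.

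The stromelysins Mmp3 and Mmp10, which cut proteoglycans and laminin and activate other MMP precursors, did not separate the groups. Mmp3 read 7.31, 6.54 and 5.61 in shECAD clones 4, 8 and 9, against 6.93, 6.60 and 4.80 in control clones 2, 3 and 4. It varied more among clones of the same group than between the groups, with SDs of 0.85 in shECAD clones and 1.14 in controls, the largest of any member in both groups. Its log2 fold change was 0.38 ± 0.53 (SE; adjusted p = 0.759), and its sign turned without shECAD clone 4 (-0.04) or control clone 4 (-0.28). Mmp10 read 5.31, 4.93 and 4.81 in the shECAD clones, against 4.85, 4.31 and 4.22 in the controls. The lowest shECAD value fell just under the highest control value, and the log2 fold change of 0.56 ± 0.21 (SE) was not called (adjusted p = 0.188).

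Mmp11, or stromelysin 3, differs from most secreted MMPs in being activated inside the cell by furin. It read 6.52, 6.53 and 6.12 in the shECAD clones, against 6.87, 7.12 and 7.15 in the controls. It was the only member whose shECAD values all lay below the control values. Its log2 fold change was -0.66 ± 0.17 (SE) and missed the threshold (adjusted p = 0.0702); it passed when dim genes were left out of the test (0.0431) and with array weights (0.0467). Mmp7, or matrilysin, lay below the array median on every array, with means of 4.13 in shECAD clones and 4.01 in controls.

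The gelatinases, which cut denatured collagen and basement membrane collagen, gave 0 calls by limma, with 1 of 2 higher at an uncorrected p below 0.05 (18.0% of all genes in either direction). Mmp2 read 7.68, 8.01 and 7.76 in shECAD clones 4, 8 and 9, against 7.35, 7.17 and 6.25 in control clones 2, 3 and 4. All values were above the array median and the groups did not overlap, but control clone 4 stood well below the other controls. Its log2 fold change of 0.89 ± 0.26 (SE) was not called (adjusted p = 0.0989) and was 0.55 without control clone 4. Mmp9 read 5.0, 4.91 and 4.97 in the shECAD clones, against 5.52, 5.19 and 4.43 in the controls. The tight shECAD values sat inside the control range, and the log2 fold change was -0.09 ± 0.24 (SE; adjusted p = 0.882), which turned positive without control clone 2 (0.15) or with array weights (0.08).

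Membrane-type MMPs are held at the cell surface, where they cut pericellular matrix. None of the 5 was called by limma, with 2 higher and 0 lower at an uncorrected p below 0.05 (40.0%, against 18.0% of all genes). Mmp14, the activator of the MMP2 precursor, read 8.25, 8.18 and 7.78 in the shECAD clones, against 7.96, 7.38 and 6.74 in the controls. Control clone 2 reached into the shECAD range, and the log2 fold change of 0.71 ± 0.27 (SE) was not called (adjusted p = 0.205) and was 0.40 without control clone 4. Mmp25, anchored in the membrane by a lipid, read 6.30, 6.20 and 6.56 in the shECAD clones, against 5.18, 6.04 and 4.96 in the controls. The groups were separated by 0.16, with control clone 3 nearest to the shECAD clones. The log2 fold change was 0.96 ± 0.26 (SE; adjusted p = 0.0762), and Mmp25 was called without control clone 3 (0.0148), with array weights (0.0262) and with the high-Eif2s3y clones as a covariate (0.0333).

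Mmp16 read 4.87, 4.61 and 4.78 in the shECAD clones, against 4.61, 4.60 and 4.09 in the controls, all below the array median. Its log2 fold change was 0.32 ± 0.18 (SE; adjusted p = 0.384). Mmp17 and Mmp24, the remaining membrane-type members, had log2 fold changes of -0.15 and 0.12 and were not called.

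The 7 other MMPs gave 0 calls by limma, with 1 higher and 0 lower at an uncorrected p below 0.05 (14.3%, against 18.0% of all genes), and log2 fold changes between -0.12 and 0.57. Mmp19 read 5.50, 5.81 and 5.10 in shECAD clones, against 5.40, 5.02 and 4.29 in controls. Mmp23 read 5.05, 5.17 and 5.40 in shECAD clones, against 5.02, 4.49 and 4.77 in controls. The Mmp19 groups overlapped and the Mmp23 groups were separated by 0.03. Mmp20, the enamel protease, read 3.90, 4.60 and 4.47 in shECAD clones, against 4.15, 4.10 and 4.22 in controls, below the array median throughout. The log2 fold changes were 0.57 for Mmp19 (adjusted p = 0.315; 0.26 without control clone 4), 0.45 for Mmp23 (0.225) and 0.17 for Mmp20 (0.703).

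All 18 Adamts genes had a positive log2 fold change on the deposited scale, from 0.01 to 1.07, though 15 did after centring each array and 16 after quantile normalization. Of the 18, 2 were called (11.1%, against 3.12% of all genes). The groups did not overlap for 6 of the 18 (33.3%), each with the shECAD clones on top, against 11.1% of all genes.

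Among the 7 proteoglycan-cleaving enzymes, 1 was called. Adamts1, which cuts versican and aggrecan, read 6.37, 6.94 and 6.76 in shECAD clones 4, 8 and 9, against 6.00, 5.43 and 5.44 in control clones 2, 3 and 4. Every shECAD clone was above every control, with control clone 2 the nearest. The log2 fold change was 1.07 ± 0.21 (SE; 2.09-fold, 95% interval 1.52 to 2.89; limma adjusted p = 0.0282). The call was lost without shECAD clone 8 (adjusted p = 0.0919), shECAD clone 9 (0.0688), control clone 3 (0.077) or control clone 4 (0.111).

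Adamts5, an aggrecanase and the chromosomal neighbour of Adamts1 on chromosome 16, was dimmer. It read 4.53, 4.98 and 4.83 in the shECAD clones, against 4.01, 4.18 and 3.40 in the controls. The groups did not overlap, although all values were below the array median, and the log2 fold change of 0.92 ± 0.22 (SE) just missed the threshold (adjusted p = 0.0513). Adamts5 passed it with an intensity trend and robust prior (0.0418) and with array weights (0.0262). Adamts9, a versican-cutting enzyme, read 6.88, 6.73 and 7.30 in the shECAD clones, against 6.63, 6.43 and 6.59 in the controls. These groups were 0.10 apart and the log2 fold change of 0.42 ± 0.18 (SE) was not called (adjusted p = 0.246). Adamts4, Adamts8, Adamts15 and Adamts20 had log2 fold changes from 0.13 to 0.29 and were not called.

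Of the 9 other ADAMTS genes, Adamts6 was called. It read 4.44, 4.44 and 4.74 in the shECAD clones, against 3.66, 3.76 and 3.59 in the controls. The clones of each group were close together and the groups were 0.68 apart, but all 6 values were below the array median. Adamts6 had a log2 fold change of 0.87 ± 0.16 (SE; limma adjusted p = 0.0204). The call was lost without shECAD clone 4 (adjusted p = 0.0516), shECAD clone 8 (0.0589), shECAD clone 9 (0.0509) or control clone 4 (0.0921).

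Adamts12 read 5.36, 5.26 and 5.34 in the shECAD clones, against 5.07, 4.57 and 4.55 in the controls, with no overlap. Adamts18 read 4.48, 4.55 and 4.82 in the shECAD clones, against 4.25, 3.65 and 4.49 in the controls, with control clone 4 inside the shECAD range. Their log2 fold changes of 0.59 ± 0.18 and 0.48 ± 0.22 (SE) were not called (adjusted p = 0.101 and 0.274), although Adamts12 was called without control clone 2 (0.0468). Without control clone 3 the Adamts18 change was 0.24. The remaining 6 of these genes, which include the blood enzyme Adamts13, had log2 fold changes from 0.01 to 0.35.

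Neither of the 2 procollagen N-proteinases, which remove the N-terminal propeptide of procollagens, was called, and neither passed an uncorrected p of 0.05. Adamts3 read 5.71, 5.30 and 5.67 in the shECAD clones, against 5.34, 5.26 and 5.18 in the controls. Adamts14 read 5.74, 5.37 and 5.49 in the shECAD clones, against 5.72, 5.12 and 5.46 in the controls. Both groups of values overlapped, with log2 fold changes of 0.30 for Adamts3 (adjusted p = 0.373) and 0.10 for Adamts14 (0.827).

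ADAMTS-like proteins share the matrix-binding modules of ADAMTS enzymes but lack the protease domain. None of the 5 was called by limma, with 2 higher and 0 lower at an uncorrected p below 0.05 (40.0%, against 18.0% of all genes). Adamtsl5 read 5.62, 5.62 and 5.67 in the shECAD clones, against 5.25, 5.06 and 4.98 in the controls. Adamtsl3 read 4.10, 3.73 and 4.05 in the shECAD clones, against 3.59, 3.21 and 3.63 in the controls. Neither pair of groups overlapped, and the log2 fold changes were 0.54 ± 0.15 (SE; adjusted p = 0.0809) and 0.48 ± 0.18 (SE; adjusted p = 0.182). Adamtsl2 read 4.54, 4.81 and 5.08 in the shECAD clones, against 4.98, 4.28 and 4.69 in the controls, with overlap and a log2 fold change of 0.16 (adjusted p = 0.75).

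The array carries several single-symbol probesets for 4 members, which gives a second reading of the same RNA at other stretches of the transcript. When every single-symbol probeset was tested on its own, 2.65% of 21789 were called. Of the 16 Adamts3 probesets 1 was called higher (limma adjusted p = 0.0439), 14 had a positive log2 fold change, and the median was 0.30. The called probeset was dim, at 3.54, 3.26 and 3.69 in shECAD clones 4, 8 and 9, against 2.85, 2.71 and 2.71 in the controls. All its values were below the array median. The shECAD values all lay above the control values for 10 of the 16, against 11.1% of all genes by their brightest probeset. The 16 read the same gene in the same RNA, so they do not count as separate genes in that comparison. For several of the 10 the groups were 0.03 apart or less. All 6 Adamts9 probesets were positive, from 0.42 to 1.11, and 0 were called by limma (lowest adjusted p = 0.0915). For Adamts9 the brightest probeset, which stood for the gene, gave the smallest of the 6 changes. The 5 Adamts17 probesets ran from -0.24 to 0.25 and the 2 Adamtsl1 probesets read 0.04 and 0.44, with 0 called.

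**Figure D4:**
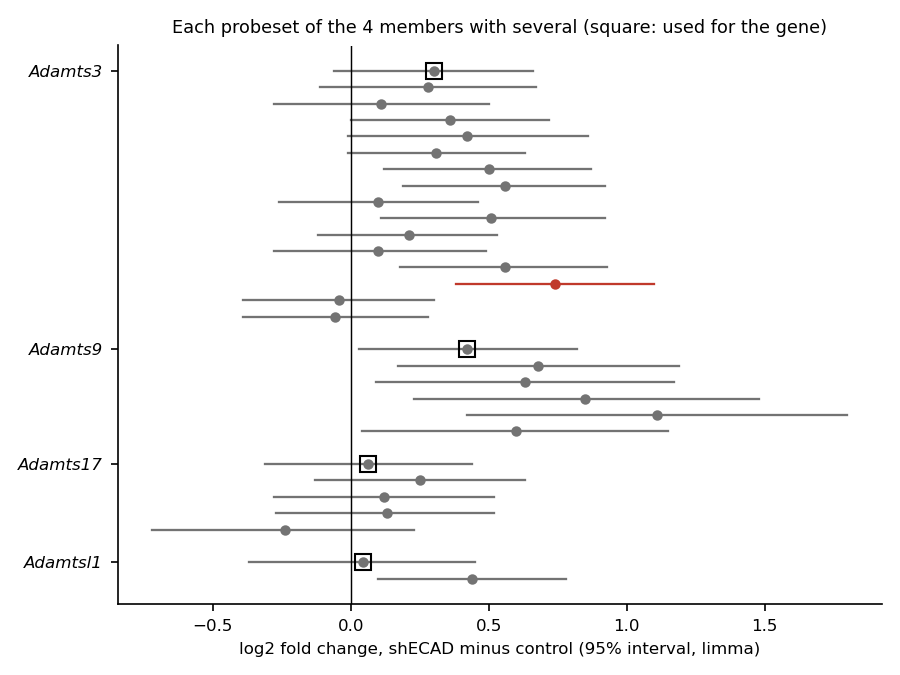
Log2 fold change, shECAD minus control, with its 95% interval from limma for each probeset of Adamts3, Adamts9, Adamts17 and Adamtsl1, brightest in the controls at the top of each gene. The square marks the probeset used for the gene, and the 1 red point is the Adamts3 probeset called at 0.74.

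Within the control clones, several members had the same order as the fibroblast and feeder markers. In these clones the marker mean was highest in clone 2 (6.25), lower in clone 3 (5.82) and lowest in clone 4 (5.18). That order of the controls was kept by 15 of the 49 members (30.6%), against 14.5% of all genes, and its cause was not tested. The 15 were Timp1, Timp2, Timp3, Mmp2, Mmp3, Mmp9, Mmp10, Mmp12, Mmp13, Mmp14, Mmp16, Mmp19, Adamts3, Adamts12 and Adamtsl5. Mmp13 kept the order only narrowly, at 4.62, 4.10 and 4.10 in control clones 2, 3 and 4. Mmp9 and Mmp12, which kept it too, had negative log2 fold changes between the groups (-0.09 and -0.12). Mmp25 was highest in clone 3 and Mmp11 lowest in clone 2. Of the called members, Adamts1 (6.00, 5.43 and 5.44 in control clones 2, 3 and 4) and Adamts6 (3.66, 3.76 and 3.59) did not keep that order. Within the shECAD clones the marker mean was highest in clone 8 (7.25), as were Timp3, Timp2, Mmp2 and Mmp19, whereas Timp1, Mmp3, Mmp10 and Mmp14 were highest in clone 4. Control clone 2 was the highest control for 30 of the 49 members (61.2%), against 37.2% of all genes.

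With the mean of the 23 markers as a covariate, limma called 0 of 19938 genes, with 813 at an uncorrected p below 0.05, among them 1 member higher and 4 lower. In that fit the log2 fold change was 1.24 ± 0.39 (SE) for Timp3, 0.16 ± 0.38 for Timp2 and 0.31 ± 0.46 for Timp1. It was 0.98 ± 0.60 for Mmp13, 0.35 ± 0.43 for Adamts1 and 0.84 ± 0.38 for Adamts6. The estimates of Timp2, Timp1 and Adamts1 were thus much smaller in that fit, whereas that of Adamts6 was close to its 0.87 without the covariate. The SEs were also wider (0.38 against 0.16 for Adamts6), too wide to set these genes apart. Mmp2, Mmp14, Mmp19 and Mmp3 turned negative in the fit with the covariate, at -0.49 ± 0.37, -0.71 ± 0.40, -0.88 ± 0.39 and -2.11 ± 0.83 (SE). The 4 lower at an uncorrected p below 0.05 were Mmp3, Mmp19, Mmp9 (-1.27 ± 0.39) and Mmp12 (-0.90 ± 0.37), so Mmp2 and Mmp14 were not among them. The marker mean and the groups do not overlap (lowest shECAD clone 6.94, highest control clone 6.25), so such a fit has little to separate them with, and the part of fibroblast or feeder RNA in the calls was not tested.

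**Figure D5:**
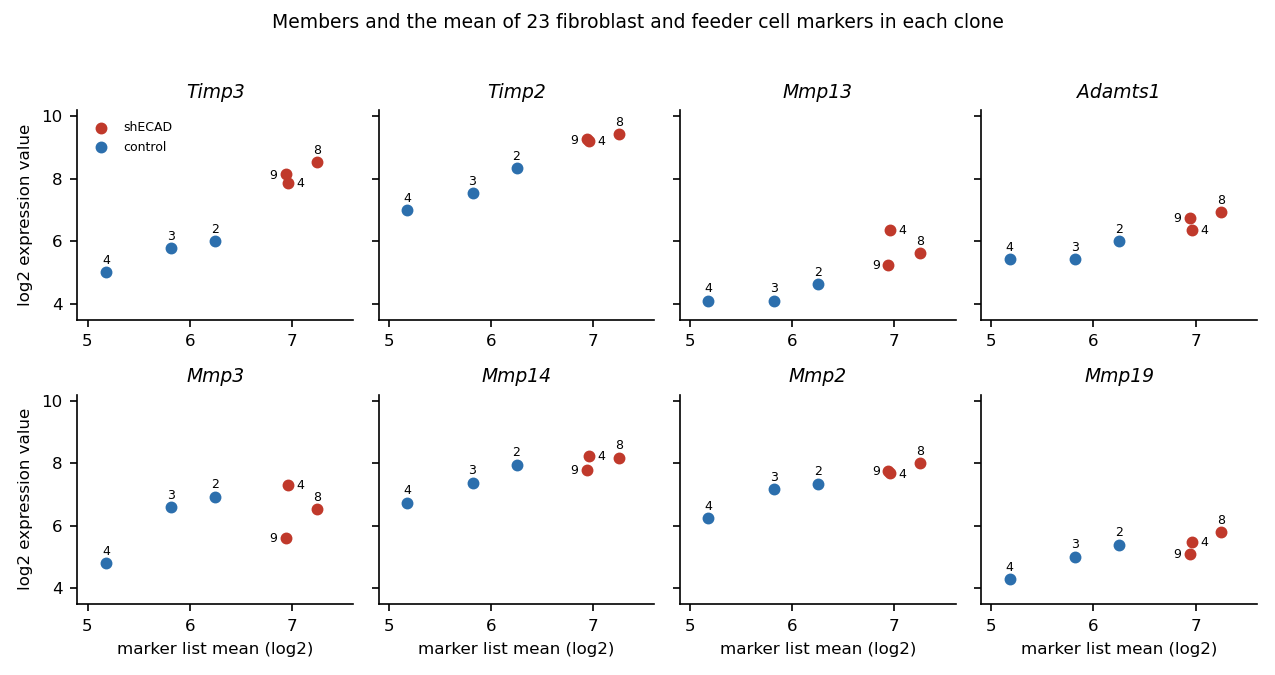
Log2 expression values of 8 members (vertical) against the mean of the 23 fibroblast and feeder markers in the same clone (horizontal, log2), with clone numbers. Timp2, Mmp2, Mmp14 and Mmp19 climb with the marker mean within the 3 control clones, and Mmp3 is lower in shECAD clone 9 than in control clones 2 and 3.

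Genes that activate or tether these proteases, or serve as their substrates, were read from the same comparison. The counts of these lists can be read against all genes, of which 3.12% were called and 18.0% had an uncorrected p below 0.05. Of 16 activators and cell-surface regulators measured 0 were called by limma, with 6 higher and 0 lower at an uncorrected p below 0.05. Cd44, a hyaluronan receptor that docks MMPs, read 6.87, 7.53 and 7.0 in shECAD clones, against 6.74, 5.33 and 4.97 in controls (log2 fold change 1.45; adjusted p = 0.0727). Plat, or tissue plasminogen activator, read 6.00, 6.54 and 6.26 in shECAD clones, against 5.80, 5.09 and 4.40 in controls (1.17; adjusted p = 0.068). In both, control clone 2 came close to the shECAD clones and the other controls lay far below.

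The 11 genes of the ADAM family, several of which encode sheddases of surface proteins, gave 0 calls by limma. At an uncorrected p below 0.05, 4 were higher and 0 lower. The leading members were Adam12, with a log2 fold change of 0.70 (adjusted p = 0.059), and Adam9, with 0.68 (adjusted p = 0.0694). Of 13 genes on a list of astacins, cathepsins, Htra1, Pcolce and Pcolce2, 1 was called higher and 1 lower. Bmp1, which removes the C-terminal propeptide of procollagens, read 7.27, 7.42 and 7.35 in shECAD clones, against 6.70, 6.10 and 5.61 in controls (log2 fold change 1.21 ± 0.24 SE; limma adjusted p = 0.0296). Mep1b, a subunit of the membrane astacin meprin, read 5.10, 4.79 and 4.19 in shECAD clones, against 5.87, 5.69 and 6.54 in controls (log2 fold change -1.34 ± 0.27 SE; limma adjusted p = 0.0302). Neither gene's groups overlapped.

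Of 10 substrates measured, which include proteoglycans, Fbn2, Comp, Vwf, Nid1 and Nid2, 1 was called, and it was higher. Vcan, which encodes versican, the proteoglycan cut by ADAMTS1, ADAMTS5 and ADAMTS9, read 7.33, 7.87 and 7.11 in shECAD clones, against 6.51, 6.07 and 5.91 in controls. Its groups did not overlap, and the log2 fold change was 1.28 ± 0.23 (SE; limma adjusted p = 0.0199). Among the controls, Bmp1 and Vcan were highest in clone 2 and lowest in clone 4, the order of the fibroblast and feeder marker mean. That order was kept by 14.5% of all genes. Mep1b, the other called gene of these lists, was highest in control clone 4 (6.54). The part of fibroblast or feeder RNA in these results was not tested either.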

How the data were processed

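Total RNA of 6 iPS lines, 1 array each, gave the values analysed. The submitters' processing notes name Partek and RMA as the tools with which the authors made the deposited log2 expression values, 1 per probeset for 28853 probesets. For both tools the version is not given in the sources used here, nor is the genome build. All values were used as deposited. Platform annotation gave 1 gene symbol to 21789 probesets, several to 1621 and none here to 5443. By Entrez identifier, 21698 of the single-symbol probesets were found in RefSeq's gene table (GRCm38.p6, for names and neighbours only), which changed 0 symbols. The brightest probeset stood for each gene, leaving 19938 genes with no filter on dim ones.

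Each gene was fitted in R 4.3.3 with limma 3.58.1 (lmFit, then eBayes with its default prior), 3 clones against 3 and without covariates. The Benjamini-Hochberg adjustment ran over all 19938 genes, and genes with an adjusted p below 0.05 were called. The fit was tested on simulated data. The number of arrays, 3 a group, limits the precision. The alternatives were other scalings, a filter on dim genes, other probeset rules, other variance settings, an adjusted p of 0.1, the fibroblast and feeder marker mean as a covariate, and leaving out each clone. Testing every probeset on its own and a covariate for clones with Eif2s3y above 6.5 were added after the data were seen.

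The members, the related gene lists and the cell type marker lists were chosen with earlier results of these data known. Members were named with their values in each clone if they were called, if they were TIMPs, or if they were among the 3 with the largest absolute change of their role group, which gave 29. Other members stand as ranges, or by name where they complete a group. From related lists the called genes are named, at most 5 a list, or else the 2 with the largest change. Some listed genes were not analysed here. Promoters came from RefSeq windows for 34 members and were searched on both strands for the AP-1 and GC box letters given with the promoters and for the TATA box letters TATAAA, held by 12 of the 34 and by 13.6% of all promoters. Figures were drawn with matplotlib 3.10.9.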

Additional observations from a re-analysis of the deposited data

How the results depend on the processing

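Counts depended on the clones more than on the scaling. Leaving out 1 clone gave between 146 (without control clone 4) and 543 (without control clone 2) called genes, against 623 with all, and between 1 and 7 called members, against 6. Without shECAD clone 8 only Timp3 was called, and without control clone 4 only Timp2 and Timp3. Called genes of the related lists, 3 with all clones, ran from 0 to 10, the median log2 fold change of members from 0.139 to 0.349, and members above the array median in the controls from 17 to 20; the 22 in the shECAD clones did not move. The change of Cdh1 ran from -2.45 to -1.921 and stayed called.

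Array weights called 1067 genes, 11 members and 13 related genes, and an adjusted p of 0.1 called 1278, 11 and 13. Without variance moderation limma called 3 genes, 0 members and 0 related genes (2972 genes, 9 members higher and 1 lower at an uncorrected p below 0.05), and Cdh1, at -2.127, had an adjusted p of 0.194. With the marker mean as a covariate 0 genes, 0 members and 0 related genes were called, and Cdh1, at -2.141, had an adjusted p of 1.0. The related lists gave 6 calls after quantile normalization, 7 among genes at or above the median level and 9 with a trend and robust prior. The filter on dim genes left 17 members, with a median of 0.376. Among those bright genes calls split 379 higher and 402 lower.

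Signs turned for 10 of the named members, none of them called. With the marker covariate, Adamts14 read -0.032, Adamtsl2 -0.072, Mmp10 -0.062, Mmp16 -0.19, Mmp14 -0.706, Mmp2 -0.486, Mmp19 -0.878, Mmp3 -2.113 and Mmp8 0.221. Mmp9 read 0.079 with array weights. Leaving out 1 clone moved Mmp9 between -0.395 and 0.147 (without control clone 2), Adamts14 between -0.058 (without control clone 3; -0.002 without shECAD clone 4) and 0.245, Adamtsl2 between -0.028 (without control clone 3) and 0.322, and Mmp3 between -0.276 (without control clone 4; -0.036 without shECAD clone 4) and 0.816. In all, the 29 named members kept their direction and side of the threshold in 391 of their comparisons, lost the call in 30 and gained it in 10. The cause of these shifts was not tested. No paired analysis was possible because the groups share only the clone number 4.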
